A study of Homo sapiens with 12 samples.

Results

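The genes described here are 10 components of the circadian clock: BHLHE40, PER1, PER2, PER3, CRY1, CRY2, NR1D1, NR1D2, DBP and CLOCK. They were taken by gene symbol from a count table of 60612 gene rows, and each symbol matched 1 row. RNA was sequenced from HepG2, an established human liver cancer line that keeps many functions of hepatocytes. Cells labelled untreated (0 min) were compared with cells exposed to 0.001 µM 2,4-D (2,4-dichlorophenoxyacetic acid, a herbicide that mimics the plant hormone auxin) for 10, 30 or 360 min, with 3 biological replicates in each of the 4 groups. Per the labels, medium was removed, cells were detached with trypsin-EDTA and washed, and RNA was extracted with Trizol. All groups are the same cell line at 1 dose, and a step that sets the phase of the clock, such as a serum shock, is not given in the sources used here. Untreated cells kept for the same 10, 30 or 360 min were not analysed here, so the exposure and the time that passed cannot be told apart.

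The mammalian clock is a transcriptional feedback loop. CLOCK, or its relative NPAS2, pairs with BMAL1 (gene ARNTL) and activates genes through E-boxes, among them the PER and CRY genes, whose proteins return to block their own activators. BHLHE40 (also DEC1) represses through the same E-boxes, NR1D1 and NR1D2 (REV-ERB-alpha and REV-ERB-beta) repress ARNTL, and DBP activates genes through D-boxes. In the liver the loop times much of metabolism, and several members, such as PER1 and BHLHE40, also respond to signals outside the loop within the hour.

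Depth and identity were checked first. Total counts per library ran from 29766148 to 83539763, and the members were covered by between 84 counts (DBP) and 3871 counts (BHLHE40) per library. Levels are given as CPM (counts per 1e6 counts) scaled by TMM, which corrects for differences in composition between libraries. The 10 hepatocyte markers checked were all present, with ALB between 7870 and 9520 CPM, and none of the 5 fibroblast markers exceeded 0.161 CPM. Of the 4 endothelial markers KDR was at 0 in every library and CDH5 and VWF reached no more than 0.33 and 0.225 CPM, while PECAM1 stood at 0.957 to 1.75 CPM; the list summed to 1.29 to 2.21 CPM. The blood cell list summed to between 1800 and 2030 CPM, nearly all of it LYZ, with PTPRC at 0. The endothelial and blood cell sums overlapped between each exposed group and the untreated one. The hepatocyte sum did not at 2 of the times: it was 30500 to 33100 CPM at 0 min, 33700 to 34200 at 10 min, 32700 to 32900 at 30 min and 33900 to 35100 at 360 min. The mitochondrial share of counts was 3.55% to 4.39% in 7 libraries and 2.52% to 2.74% in the other 5. The higher side held the whole 10 min group, replicate 1 of the 0 min group, replicates 2 and 3 of the 30 min group and replicate 3 of the 360 min group. The untreated libraries also differed in the immediate early gene FOS, at 14.1, 106 and 136 CPM in replicates 1, 2 and 3. Members were therefore also tested with a term for the mitochondrial split and with 0 min replicate 1 as the lone untreated library.

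Promoter sequences are shown for the 4 members called against 0 min and for NR1D1, the paralog of NR1D2, because the E-box is the element through which the loop acts on its own genes. RefSeq windows (GRCh38.p14) of 300 bases, 250 before to 50 after an annotated start, were found for 10 of 10 members, with 14 windows in all. They were searched on both strands for the E-box CACGTG, the variant E-prime box CACGTT, the D-box TTANGTAA, the ROR element TAGGTCA and the cAMP response element TGACGTCA. The stretches below run 5′ to 3′ on the gene's strand, with the E-box or E-prime box in capitals (AACGTG is CACGTT read on the other strand). They hold only bases before the start that lie in no GENCODE exon, except for BHLHE40, whose box lies in an exon of the longer GENCODE gene model and is shown in 30 bases.
BHLHE40, chr3:4979187-4979216, plus strand: tccaaCACGTGagactcatgtgatgaagcc
PER1, chr17:8152436-8152654, minus strand: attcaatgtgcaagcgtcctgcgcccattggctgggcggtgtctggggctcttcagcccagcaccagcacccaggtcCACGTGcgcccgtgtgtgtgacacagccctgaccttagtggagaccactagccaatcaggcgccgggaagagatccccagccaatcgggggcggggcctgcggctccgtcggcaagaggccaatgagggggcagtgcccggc
PER2, chr2:238288611-238288860, minus strand: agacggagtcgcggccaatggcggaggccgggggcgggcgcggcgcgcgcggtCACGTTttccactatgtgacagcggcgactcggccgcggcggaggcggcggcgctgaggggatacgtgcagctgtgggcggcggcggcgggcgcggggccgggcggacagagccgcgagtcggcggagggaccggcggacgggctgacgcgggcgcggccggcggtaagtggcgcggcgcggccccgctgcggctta
NR1D1, chr17:40100726-40100839, minus strand: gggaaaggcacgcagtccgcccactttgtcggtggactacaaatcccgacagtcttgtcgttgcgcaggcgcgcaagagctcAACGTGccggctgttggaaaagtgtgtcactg
NR1D2 (second window), chr3:23945871-23946120, plus strand: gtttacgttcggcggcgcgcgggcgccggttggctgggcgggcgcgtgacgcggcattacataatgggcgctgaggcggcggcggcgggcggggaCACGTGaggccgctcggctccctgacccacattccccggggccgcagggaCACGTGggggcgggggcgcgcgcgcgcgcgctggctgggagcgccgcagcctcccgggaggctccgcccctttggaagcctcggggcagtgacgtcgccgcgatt

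An E-box was present in the windows of 3 members, BHLHE40 (its first base 245 bases before the start), PER1 (173 bases) and NR1D2 (155 and 105 bases). An E-prime box was present in 5 others, PER2 (197 bases before the start), CRY1 (89), CRY2 (188), NR1D1 (168) and CLOCK (187). Counted by window, 3 of the members' 14 windows held an E-box and 5 an E-prime box. Of all 35116 RefSeq windows of this length, 7.26% held an E-box and 5.34% an E-prime box. D-boxes, in 2.18% of all windows, were found for PER2, PER3 and NR1D2. The ROR element, in 1.85%, was found for CRY2, and the cAMP response element, also in 1.85%, for none of the members. The E-box genes did not share a course over time: BHLHE40 fell at 30 min, and PER1 and NR1D2 rose at 360 min. Of the members with an E-prime box, PER2 rose at 360 min. The others were not called at 360 min against 0 min: CRY1 (log2 0.075), CRY2 (0.15), CLOCK (0.078) and NR1D1 (-0.29). These matches describe letters in a window and show no binding.

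Levels were compared between genes per length, as CPM per kb of exon. In untreated cells BHLHE40 stood highest at 14.1 ± 1.6 CPM per kb (SD, n = 3), and its 3 libraries lay above those of every other member. CRY1 followed at 4.44 ± 0.27, then NR1D1 at 3.15 ± 0.38, NR1D2 at 3.05 ± 0.13, CRY2 at 2.8 ± 0.14, CLOCK at 2.39 ± 0.22, PER2 at 2.31 ± 0.068 and PER1 at 2.16 ± 0.16. PER3 and DBP were lowest, at 0.63 ± 0.057 and 0.477 ± 0.055 CPM per kb. The libraries overlapped between NR1D1 and NR1D2, between CLOCK and PER2 and between PER2 and PER1, and not between the other neighbours in this order. Scaling by the longest coding transcript instead kept BHLHE40 and CRY1 first but put CRY2 next after them and DBP above PER3. At 30 min BHLHE40 stood at 4.45 ± 0.47 CPM per kb, where its libraries overlapped those of CRY1 (4.92 ± 0.19). Per kb of the longest coding transcript they did not overlap at that time, at 4.32 to 5.3 for BHLHE40 and 7.39 to 7.96 for CRY1. At 360 min BHLHE40 was again first, at 14.7 ± 0.21 CPM per kb of exon.

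**Figure D1:**
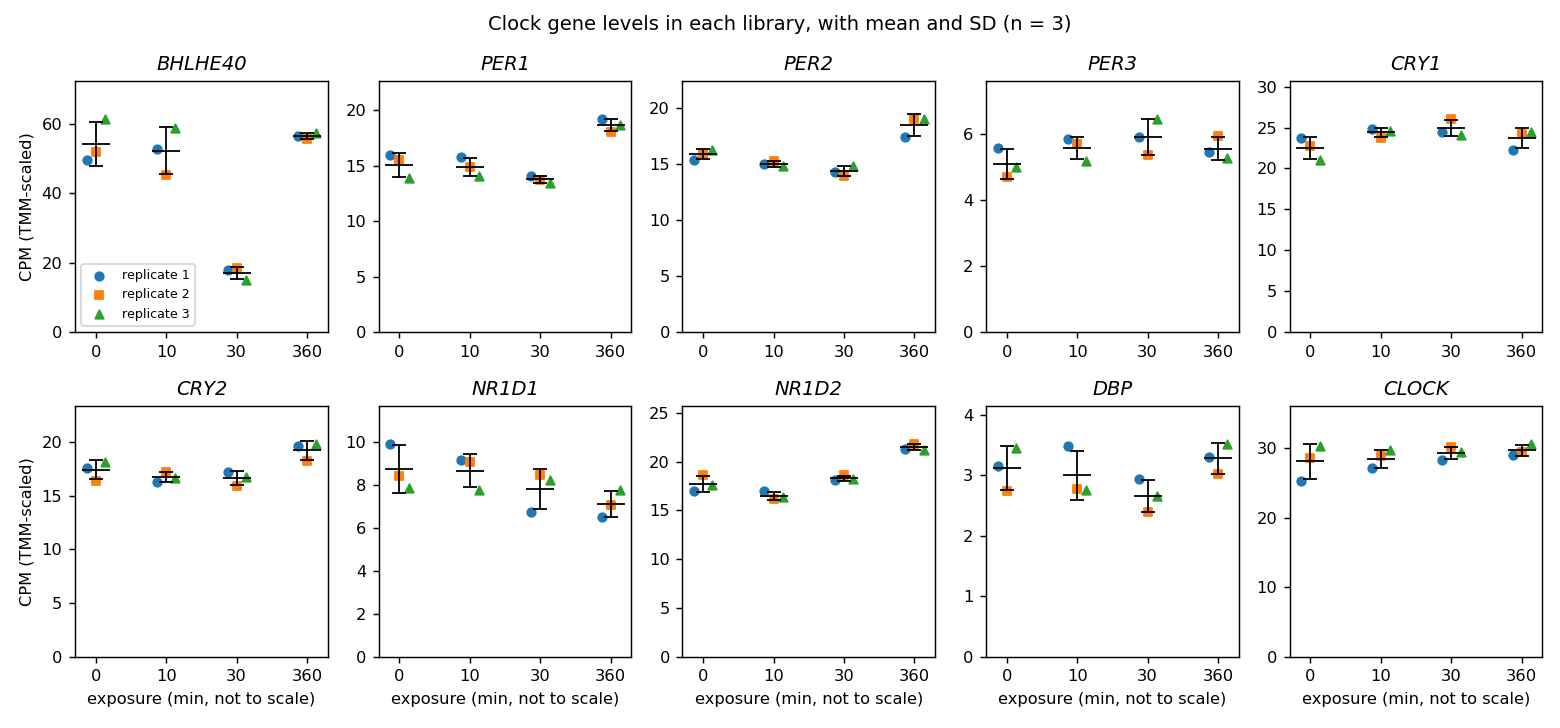
Level of each clock gene (vertical axis, TMM-scaled CPM, from 0) in every library against exposure time (horizontal axis, min, evenly spaced rather than to scale), with 1 marker per replicate and the mean and SD of 3 libraries. BHLHE40 drops to between 15 and 18.4 CPM at 30 min in all 3 libraries, and PER1, PER2 and NR1D2 are highest at 360 min.

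BHLHE40 (ENSG00000134107, chromosome 3, 4979116 to 4985323, plus strand, GRCh38) encodes a basic helix-loop-helix repressor that competes with CLOCK and BMAL1 at E-boxes. Its level was 49.5, 51.9 and 61.3 CPM in the untreated libraries and 52.9, 45.2 and 58.8 CPM at 10 min. It was 17.8, 18.4 and 15 CPM at 30 min, and 56.4, 55.7 and 57.3 CPM at 360 min. The 30 min libraries lay below every library of the other groups, and the 3 other groups overlapped one another. The gene fell 3.16-fold from 0 to 30 min, a log2 fold change of -1.66 (SE 0.1, 95% interval -1.88 to -1.44, edgeR quasi-likelihood test with Benjamini-Hochberg adjustment over 17779 genes, adjusted p = 3.58e-06). Among the 104 genes called lower at 30 min (adjusted p under 0.05) it ranked 9 by the size of the fall, and by p it ranked 3 among all genes tested.

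The fall of BHLHE40 took place between 10 and 30 min and was followed by a return. From 10 to 30 min the log2 fold change was -1.6 (SE 0.1, adjusted p = 6.24e-06), and from 30 to 360 min it rose by 1.72 (SE 0.1, adjusted p = 2.53e-07). At 360 min the difference from 0 min was 0.058, with a 95% interval of -0.15 to 0.27 (adjusted p = 0.751), and at 10 min it was -0.053, with an interval of -0.26 to 0.16 (adjusted p = 0.886). With the mitochondrial split term the 30 min difference was -1.63 (adjusted p = 1.4e-05), and against 0 min replicate 1 alone it was -1.52 (adjusted p = 0.000271). FOS took another course: it stood at 13, 10.6 and 7.1 CPM at 10 min, 3.09, 3.52 and 2.21 CPM at 30 min and 1.59, 2.93 and 1.8 CPM at 360 min, with no return. The antisense gene BHLHE40-AS1 shares 4 exonic bases with BHLHE40 and stood at no more than 0.474 CPM in any library. In bulk RNA, fewer expressing cells and less RNA per cell cannot be told apart.

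The 3 PER genes encode the PERIOD proteins, which form the repressor complex of the loop together with the CRY proteins. PER1 (ENSG00000179094, chromosome 17, 8140472 to 8156506, minus strand) is known for its quick response to outside signals. Its level was 16, 15.5 and 13.9 CPM in the untreated libraries, 15.8, 14.9 and 14.1 CPM at 10 min, 14.1, 13.7 and 13.5 CPM at 30 min, and 19.2, 18.1 and 18.7 CPM at 360 min. All 360 min libraries lay above all others. PER1 rose 1.24-fold from 0 to 360 min (log2 0.3, SE 0.066, 95% interval 0.16 to 0.45, adjusted p = 0.0061) and by 0.44 on the log2 scale from 30 to 360 min (SE 0.066, adjusted p = 0.000429). The call against 0 min was lost when 0 min replicate 1 was the lone untreated library (log2 0.22, adjusted p = 0.139).

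PER2 (ENSG00000132326, chromosome 2, 238244038 to 238290102, minus strand), the other PER gene that the loop depends on, showed a similar course at similar levels. It stood at 15.4, 15.9 and 16.3 CPM at 0 min, 15, 15.3 and 14.8 CPM at 10 min, 14.3, 13.9 and 14.8 CPM at 30 min, and 17.4, 19 and 19 CPM at 360 min. The 10 and 30 min libraries all lay below the untreated ones and the 360 min libraries all above them. The difference at 30 min, -0.15 (95% interval -0.27 to -0.024, adjusted p = 0.425), did not pass, and the rise at 360 min was 0.22 (SE 0.056, 95% interval 0.1 to 0.34, adjusted p = 0.0163). That call was lost without 0 min replicate 1 (adjusted p = 0.0592), without 360 min replicate 2 (0.0776) or 3 (0.0736), with 0 min replicate 1 alone (0.0758) and with no filter on low counts (0.0541). From 30 to 360 min PER2 rose by 0.36 (SE 0.056, adjusted p = 0.000522).

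PER3 (ENSG00000049246, chromosome 1, 7784320 to 7845177, plus strand), a PER gene that the loop can run without, was not called at any time. Its level was 5.6, 4.7 and 5 CPM at 0 min, 5.86, 5.71 and 5.2 CPM at 10 min, 5.92, 5.38 and 6.46 CPM at 30 min, and 5.47, 5.95 and 5.28 CPM at 360 min, and all groups overlapped. The difference at 360 min was 0.13, with a 95% interval of -0.1 to 0.35 that includes the rises of PER1 and PER2. PER3 shares 868 exonic bases (10.7% of its exons) with UTS2 on the opposite strand and a further 5.95% with an antisense transcript. Without knowledge of strand, their reads cannot be told apart there. UTS2 was not among the genes kept for testing.

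The cryptochromes CRY1 and CRY2 are the partners of the PER proteins and the stronger repressors of CLOCK and BMAL1. CRY1 (ENSG00000008405, chromosome 12, 106991364 to 107093829, minus strand) stood at 23.7, 22.8 and 21 CPM at 0 min, 24.8, 23.7 and 24.6 CPM at 10 min, 24.5, 26 and 24.1 CPM at 30 min, and 22.3, 24.2 and 24.5 CPM at 360 min. At 10 and 30 min all of its libraries lay above the untreated ones, the opposite side from PER2. The differences were 0.12 (adjusted p = 0.483) and 0.15 (95% interval 0.027 to 0.27, adjusted p = 0.407), and neither passed. At 360 min the groups overlapped (0.075, adjusted p = 0.413).

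CRY2 (ENSG00000121671, chromosome 11, 45847118 to 45883248, plus strand) stood at 17.6, 16.4 and 18.1 CPM at 0 min, 16.3, 17.2 and 16.6 CPM at 10 min, 17.2, 15.9 and 16.7 CPM at 30 min, and 19.6, 18.2 and 19.8 CPM at 360 min. The 360 min libraries were the highest, by a narrow margin over the untreated ones. The difference from 0 min, 0.15 (95% interval 0.021 to 0.27, adjusted p = 0.104), did not pass. CRY2 rose by 0.22 from 30 min (SE 0.058, adjusted p = 0.0178) and by 0.2 from 10 min (SE 0.06, adjusted p = 0.0239). The first call was lost without 30 min replicate 2 or 3, without 360 min replicate 1 or 3 (adjusted p 0.0501 to 0.0686) and with no filter (0.0582). The second was lost without 10 min replicate 1 or 3, without 360 min replicate 1 or 3 (0.0675 to 0.0851) and with the mitochondrial split term (0.0533).

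Of the REV-ERB pair, 1 gene was called at 360 min, NR1D2. This gene (ENSG00000174738, chromosome 3, 23945260 to 23980618, plus strand), which encodes REV-ERB-beta, stood at 17, 18.6 and 17.6 CPM at 0 min, 17, 16.2 and 16.4 CPM at 10 min, 18.1, 18.6 and 18.2 CPM at 30 min, and 21.3, 21.8 and 21.2 CPM at 360 min. The 360 min libraries were close to each other and above all others. NR1D2 rose 1.21-fold from 0 to 360 min (log2 0.27, SE 0.049, 95% interval 0.17 to 0.38, adjusted p = 0.00196), and the call was kept in all 16 alternatives run for it. From 10 to 360 min it rose by 0.38 (SE 0.05, adjusted p = 0.000165). At 10 min its libraries lay just below the untreated ones (-0.1, adjusted p = 0.484).

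NR1D1 (ENSG00000126368, chromosome 17, 40092787 to 40100725, minus strand), which encodes REV-ERB-alpha, stood at 9.91, 8.43 and 7.87 CPM at 0 min and 9.16, 9.05 and 7.77 CPM at 10 min. It stood at 6.73, 8.45 and 8.22 CPM at 30 min, and 6.52, 7.08 and 7.76 CPM at 360 min. All 360 min libraries lay below all untreated ones, although the highest and the lowest of the groups were close, at 7.76 and 7.87 CPM. The difference was -0.29 (95% interval -0.55 to -0.038, adjusted p = 0.109), which did not pass in the main test. It passed in 1 of 16 alternatives, the mitochondrial split term (adjusted p = 0.027), and not in the other 15. NR1D1 shares 263 exonic bases (9.49% of its exons) with THRA, the thyroid hormone receptor alpha gene on the opposite strand. THRA fell over the same interval, from 12.8, 13.6 and 12 CPM to 9.86, 9.86 and 10.4 CPM (log2 -0.35, SE 0.083, adjusted p = 0.011). That call was lost in 2 of 16 alternatives, among them the omission of 0 min replicate 2 (adjusted p = 0.0516). The other was the fit with 0 min replicate 1 as the lone untreated library, where the difference of THRA was -0.35. The part of THRA in the values of NR1D1 was not tested.

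CLOCK (ENSG00000134852, chromosome 4, 55427903 to 55547138, minus strand), the activator of the loop, stood at 25.3, 28.6 and 30.3 CPM at 0 min and 27.2, 28.8 and 29.7 CPM at 10 min. It stood at 28.3, 30.1 and 29.5 CPM at 30 min and 29, 29.5 and 30.6 CPM at 360 min. The groups overlapped at every time, and the difference at 360 min was 0.078 (95% interval -0.053 to 0.21, adjusted p = 0.431). Its partner gene ARNTL stood at 7.1, 7.28 and 7.37 CPM at 0 min and 7.51, 6.1 and 7 CPM at 360 min (-0.074, adjusted p = 0.617). NPAS2, which can replace CLOCK as the partner of BMAL1, fell from 139, 138 and 141 CPM to 114, 113 and 116 CPM at 360 min (log2 -0.29, SE 0.039, adjusted p = 0.000271). In untreated cells NPAS2 stood at 11.2 ± 0.11 CPM per kb of exon, against 2.39 ± 0.22 for CLOCK and 1.08 ± 0.021 for ARNTL. Per kb of the longest coding transcript these levels were 34.8 ± 0.33, 2.72 ± 0.25 and 2.6 ± 0.05, so NPAS2 was highest on both scales, while ARNTL overlapped CLOCK on the second.

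DBP (ENSG00000105516, chromosome 19, 48630030 to 48637438, minus strand), a direct target of CLOCK and BMAL1 that activates D-box genes, was the member with the fewest counts, 84 to 249 per library. It stood at 3.16, 2.75 and 3.46 CPM at 0 min, 3.48, 2.77 and 2.76 CPM at 10 min, 2.94, 2.39 and 2.66 CPM at 30 min, and 3.31, 3.02 and 3.52 CPM at 360 min. No comparison passed, and the interval at 360 min ran from -0.21 to 0.37, which does not exclude a change of the size seen for PER1. From 30 to 360 min the difference was 0.3 (95% interval 0.011 to 0.6, adjusted p = 0.131). DBP shares 661 exonic bases (10.1%) with SPHK2 on the opposite strand, whose mean was 17.5 CPM at 0 min and 18.5 CPM at 360 min. For BHLHE40, PER1, PER2, CRY1 and CLOCK no single overlapping gene shared more than 2.73% of the exonic bases, and for NR1D2 none shared any.

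**Figure D2:**
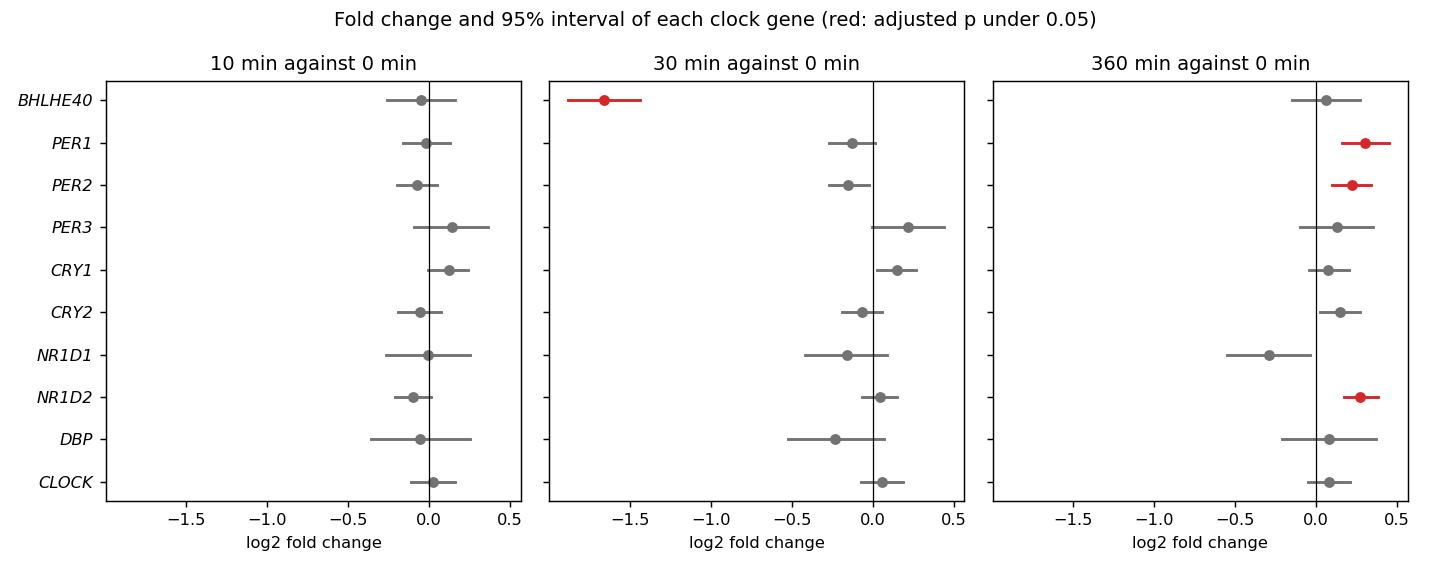
Log2 fold change (horizontal axis) of each clock gene at 10, 30 and 360 min against 0 min, as points with 95% intervals from the edgeR fit, red where the adjusted p was under 0.05. At 30 min 1 gene is called, BHLHE40 at -1.66, and at 360 min 3 genes are called, PER1 at 0.3, NR1D2 at 0.27 and PER2 at 0.22.

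Counted over the members, the time course had a single early change and a small later one. At 10 min edgeR, DESeq2 and limma voom each called 0 of the 10 members, and none had an unadjusted edgeR p under 0.05. Of all 17779 genes tested, 1941 had an unadjusted edgeR p under 0.05. After adjustment edgeR called 3 of all genes (0.0169%), limma voom 3 and DESeq2 174. At 30 min 1 of 10 was called lower and none higher, where 0.585% of all genes were called lower and 0.18% higher. At 360 min 3 of 10 were called higher and none lower, where 8.89% of all genes were called higher and 9.19% lower. The members' median log2 fold change at 360 min was 0.1, and that of all genes tested was 0.00. The hepatocyte marker sum was also higher in all 360 min libraries than in all untreated ones, and its part in these calls was not tested. Without 0 min replicate 1, without 360 min replicate 2 or without 360 min replicate 3, 2 of the members were called at 360 min, and with 0 min replicate 1 as the lone untreated library 1 was, NR1D2.

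Between exposure times, BHLHE40 was the member called lower from 10 to 30 min, where 0.411% of all genes were. From 30 to 360 min 5 of 10 were called higher (BHLHE40, PER1, PER2, CRY2 and NR1D2), against 11.4% of all genes, and from 10 to 360 min 4 of 10 (the same without BHLHE40), against 12.9%. These comparisons share libraries with those against 0 min and are not separate evidence. A single test of any difference among the 4 times called 5 of 10 members, against 22.6% of all genes: BHLHE40 (adjusted p = 9.05e-07), NR1D2 (0.000735), PER1 (0.00167), PER2 (0.00187) and CRY2 (0.046). Leaving out any 1 library other than 0 min replicate 2 left 4 members called by this test. The libraries of the compared groups did not overlap for 3 members at 10 min, 3 at 30 min and 5 at 360 min, where the shares of all genes were 15.5%, 14.5% and 35.6%. The 5 at 360 min were PER1, PER2, CRY2 and NR1D2 above the untreated libraries and NR1D1 below them.

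The wider clock machinery was described with 57 further genes in 8 lists by role, 51 of which had enough counts to be tested. At 30 min 1 of the 51 was called, RASD1, a small GTPase that modulates light input to the clock. It fell from 3.64, 4.03 and 4.33 CPM to 2.52, 2.31 and 2.43 CPM (log2 -0.73, SE 0.11, adjusted p = 0.00888) and stood at 3.79, 4.27 and 4.08 CPM at 360 min. The call was lost in 4 of 16 alternatives, among them the omission of 0 min replicate 3 (adjusted p = 0.056) or 30 min replicate 2 (0.0527). NFIL3, a D-box repressor that opposes DBP, stood at 29.6, 35.1 and 36.2 CPM at 0 min and 27.6, 27.5 and 25.3 CPM at 30 min (-0.33, adjusted p = 0.0509), and did not pass.

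At 360 min 5 of the 51 were called higher and 7 lower, with a median log2 fold change of 0.01. These counts are near the shares of all genes tested, 8.89% higher and 9.19% lower. Among the activators 1 of 4 was called, NPAS2, lower as described. Among the kinases and ubiquitin ligases that set the stability of PER and CRY proteins, CSNK1E, casein kinase 1 epsilon, which phosphorylates PER proteins, fell from a mean of 64.8 to 53.7 CPM (log2 -0.27, SE 0.039, adjusted p = 0.000477).

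Of the 12 coregulators, TIMELESS rose by 0.17 (SE 0.031, adjusted p = 0.00215), EP300, a histone acetyltransferase, rose by 0.14 (SE 0.035, adjusted p = 0.0131) and RACK1 fell by 0.11 (adjusted p = 0.0497). The call of RACK1 was lost in 9 of 16 alternatives and that of EP300 in 2, including the omission of 360 min replicate 3 (adjusted p = 0.0746). Among the 11 tested factors that carry CREB and other signals into the clock, 3 were called, all lower, where 9.19% of all genes were called lower. CRTC3 and CRTC1, coactivators of CREB, fell by 0.37 (SE 0.064, adjusted p = 0.00155) and 0.27 (SE 0.072, adjusted p = 0.0214). SIK2, a kinase that holds CRTC proteins in the cytoplasm, fell by 0.21 (SE 0.035, adjusted p = 0.00145). SIK2 did not pass against 0 min replicate 1 alone (0.0825). The call of CRTC1 was lost without 0 min replicate 1 (adjusted p = 0.0628) or 360 min replicate 1 (0.0935).

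Of the 8 tested output genes of the clock, 2 were called higher and 1 lower at 360 min, where 8.89% of all genes were called higher and 9.19% lower. ALAS1, the rate-limiting enzyme of heme synthesis, rose from 59.1, 54.4 and 53.6 CPM to 75.1, 77.4 and 74.6 CPM (log2 0.44, SE 0.04, adjusted p = 1.51e-05). KLF10, a zinc finger repressor, fell from 27.5, 31.6 and 32 CPM to 17.7, 19.8 and 19.2 CPM (-0.69, SE 0.073, adjusted p = 4.59e-05). PPP1R3C, a glycogen-targeting subunit of protein phosphatase 1, rose by 0.34 (SE 0.1, adjusted p = 0.0266), a call lost in 7 of 16 alternatives. None of the 4 D-box factors was called at 30 or 360 min. BHLHE41, the close relative of BHLHE40, was nearly absent, with 12 counts over the 12 libraries together, and CIART, RORB, KLF9 and CYP7A1 were not tested for low counts either (79, 0, 6 and 28 counts). FBXL21 matched no symbol of the table.

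**Figure D3:**
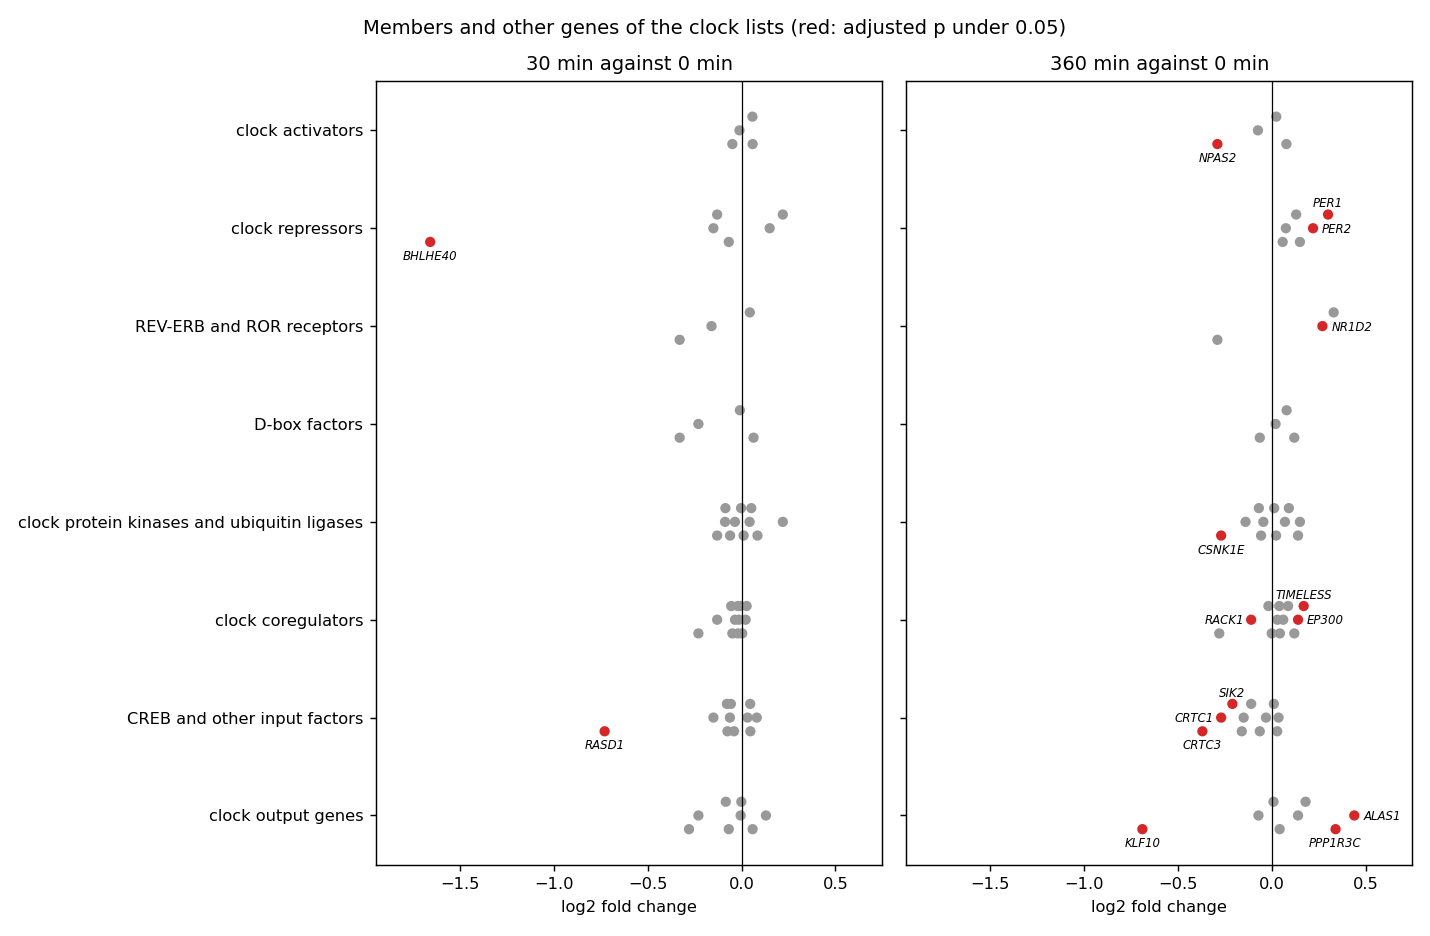
Log2 fold change (horizontal axis) of the tested genes of the clock lists, members included and genes not reported here left out, by list (vertical axis, points spread for legibility) at 30 and 360 min against 0 min, red and named where the adjusted p was under 0.05. At 30 min BHLHE40 (-1.66) and RASD1 (-0.73) stand apart from the rest, and at 360 min the called genes lie between -0.69 (KLF10) and 0.44 (ALAS1).

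For each member called against 0 min, the 3 genes with the most similar log2 CPM over the 12 libraries were sought among the 12435 tested genes whose log2 CPM averaged 1 or more. These correlations are a description over 4 groups of libraries and carry no test. The course of BHLHE40 was closest to those of CITED2, a transcriptional coregulator that competes for EP300 (Pearson r = 0.973), TMCC1, an endoplasmic reticulum membrane protein (0.969), and TMEM39A (0.963). CITED2 stood at 19.7, 23 and 26.8 CPM at 0 min, 12.1, 12.1 and 12 CPM at 30 min and 24, 23.9 and 25.9 CPM at 360 min. Its log2 change at 30 min was -0.94 (SE 0.11). TMCC1 changed by -0.54 (SE 0.068) and TMEM39A by -0.34 (SE 0.038) at 30 min, each less than BHLHE40. The 3 genes were picked for likeness to BHLHE40 in these same libraries, so a fall at 30 min follows from the choice.

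The genes most like NR1D2 were ASH1L, a histone methyltransferase (r = 0.988), CENPA, the centromeric histone H3 variant (0.983), and ATF5, a stress-responsive transcription factor (0.974). Those most like PER2 were RAD54L, a DNA repair protein (0.979), TTC21B, a protein of the ciliary transport machinery (0.972), and SENP5, a SUMO protease (0.968). Those most like PER1 were ABCF3 (0.958), CLCC1 (0.958) and LARP1, an RNA-binding regulator of translation (0.956). At 360 min the genes named for NR1D2, PER2 and PER1 were between 0.16 (ABCF3 and LARP1) and 0.4 (ATF5) above 0 min on the log2 scale. They were picked for likeness to these members in the same libraries, so a rise at 360 min follows from the choice. None of the genes named for similarity belongs to the clock lists.

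**Figure D4:**
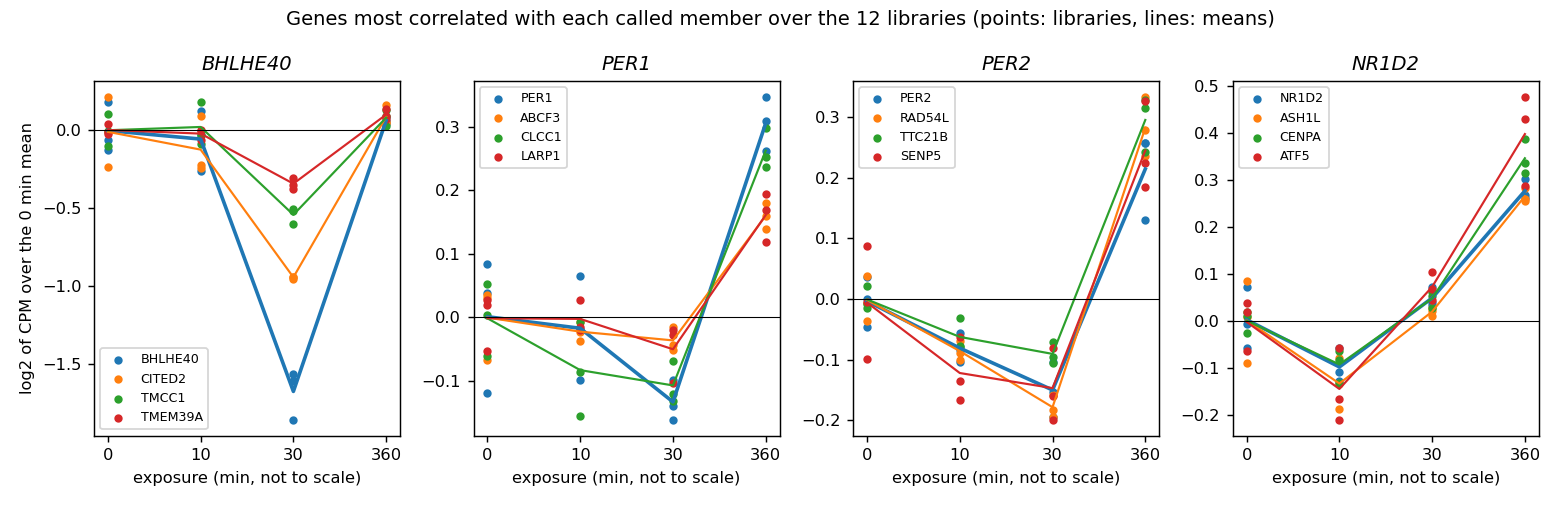
Log2 of CPM over the mean at 0 min (vertical axis, a separate scale in each panel) against exposure time (horizontal axis, min, evenly spaced rather than to scale) for BHLHE40, PER1, PER2 and NR1D2 and the 3 genes most correlated with each, with points for libraries and lines for means of 3. CITED2 dips at 30 min with BHLHE40 but less deeply (-0.94 against -1.66), and the genes around PER1, PER2 and NR1D2 are highest at 360 min. All were picked for likeness to the member in these same libraries.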

How the data were processed

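Raw counts, whole numbers that were not normalized, were deposited as a single table of 60612 gene rows by 12 libraries. The submitters' processing notes name HISAT2, DESeq2 and GRCh38 without versions or roles. How reads were counted, with which annotation and whether strand was used, is not given in the sources used here. Per the labels' protocols, RNA was captured on oligo-dT beads.

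Positions, exon lengths and overlaps came from GENCODE release 29 on GRCh38, in which 58394 of the 60612 identifiers (96.34%) were found. Promoter windows came from RefSeq (GRCh38.p14).

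The deposited counts entered edgeR 4.0.16 (R 4.3.3) unchanged: filterByExpr by group (17779 genes kept), TMM scaling (factors 0.981 to 1.014), 1 coefficient per group over all 12 libraries, and 2-sided quasi-likelihood tests with Benjamini-Hochberg adjustment over all genes tested. All adjusted p-values are from this test unless another tool is named. The SE is the absolute log2 fold change over the square root of F, and 95% intervals use the t distribution with the fit's total degrees of freedom (median 12.7). Values are TMM-scaled CPM, as mean ± SD with n = 3 where averaged. The code was checked on simulated data. P-values rest on the spread between biological replicates within groups, pooled over the 4 groups. In the libraries, 3 counts corresponded to 0.0359 to 0.101 CPM, which covers counting error only.

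Named were all members, genes of the other clock lists called against 0 min (up to 4 per list by p), ARNTL, NPAS2 and BHLHE41, overlapping genes, and for each member called against 0 min the 3 most correlated genes. NFIL3 and CIART, RORB, KLF9, CYP7A1 and FBXL21 were named after their values were seen. The members, lists and tests were chosen with earlier results of these data known. Alternatives were DESeq2 1.42.0, limma voom (limma 3.58.1), RLE and total-count scaling, other filters, fits of only the groups compared, a block for replicate number, omission of each library, 0 min replicate 1 as the lone untreated library, a term for the mitochondrial split at 3% and a threshold of 0.01. Replicates were distinct libraries. Some genes of the clock lists are counted but not reported here by name.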

Additional observations from a re-analysis of the deposited data

How the results depend on the processing

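BHLHE40 at 30 min was called in 16 of 16 alternatives, with log2 fold changes of -1.72 to -1.52, and NR1D2 at 360 min in 16 of 16. Over the members, the calls at 10 min (0) and 30 min (1) were the same in every alternative run. At 360 min against 0 min the count of 3 became 1 with 0 min replicate 1 as the lone untreated library, 2 with no filter or at a threshold of 0.01, 4 with the mitochondrial split term, and 2 to 3 with 1 library left out. With a lone untreated library, its spread is assumed to be that of the other groups. The counts were 4 or 5 from 30 to 360 min, 3 or 4 from 10 to 360 min and 4 or 5 for any difference. Same-numbered replicates did not deviate together (r from -0.17 to 0.15 over 18 pairs, 5 of them over 0.1), so the numbers were not taken as a pairing. With the replicate block, members called stayed at 0, 1 and 3 against 0 min, at 1, 5 and 4 between exposure times, and 4 differed at any time.

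Counts over all genes varied more. At 10 min the 3 calls became 174 with DESeq2, 6 with the replicate block, 9 with no filter, 7 with the compared groups alone, 10 with the lone untreated library, 1 at the threshold of 0.01, and 1 to 25 with 1 library left out. At 30 min the 136 became 271 with DESeq2, 67 with the compared groups alone, 52 with the lone untreated library, 62 at 0.01 and 61 to 163 with 1 library left out. At 360 min the 3215 became 1751 with the lone untreated library and 1718 at 0.01. From 10 to 30 min the 102 became 290 with DESeq2, 37 at 0.01 and 39 to 83 with 1 library left out. From 30 to 360 min the 4034 became 2256 at 0.01, from 10 to 360 min the 4560 became 2575, and for any difference the 4026 became 2201 at 0.01 and 2643 to 4292 with 1 library left out. The cause was not tested.

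A change of sign occurred in 35 values, none of them called and none larger than 0.087 in size. At 10 min BHLHE40 took 0.087 with the lone untreated library and 0.00062 with the split term, NR1D1 0.0099 with limma voom and CLOCK -0.0026 with total counts. At 360 min PER3 took -0.011 with the lone untreated library. From 10 to 30 min CRY2 took 0.012 with total counts and 0.0087 with no filter. From 10 to 360 min PER3 took 0.003, 0.0028 and 0.011 with total counts, no filter and the split term, and CRY1 0.0066 with the split term. With 1 library left out, at 10 min BHLHE40 ran from -0.15 to 0.044, PER1 ran from -0.076 to 0.026, NR1D1 ran from -0.079 to 0.087, DBP ran from -0.17 to 0.028, CLOCK ran from -0.043 to 0.08. At 30 min CLOCK ran from -0.0068 to 0.12. At 360 min BHLHE40 ran from -0.0077 to 0.16, DBP ran from -0.0091 to 0.16. From 10 to 30 min CRY1 ran from -0.00092 to 0.05, CRY2 ran from -0.045 to 0.02. From 30 to 360 min CLOCK ran from -0.0087 to 0.039. From 10 to 360 min PER3 ran from -0.066 to 0.025, CRY1 ran from -0.074 to 0.0019. DBP, with 84 to 249 counts, is the member whose precision depth limits most.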

Other observations

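RORA, which encodes a receptor that activates ARNTL in opposition to the REV-ERB proteins, was low in a single library. It stood at 12.4, 12.9 and 12.7 CPM at 0 min, 14.4, 14.5 and 13.6 CPM at 10 min, 4.65, 13.3 and 12.7 CPM at 30 min and 15.8, 16 and 16 CPM at 360 min. The low value was 394 counts in the 30 min replicate 1, the most deeply sequenced library (83539763 counts in all). All 360 min libraries lay above all untreated ones. The difference, 0.33 (SE 0.26, 95% interval -0.24 to 0.9, adjusted p = 0.443 by edgeR), did not pass. This SE rests on a spread pooled over the 4 groups, the low 30 min library included. Within the compared groups the SD was 0.24 CPM at 0 min and 0.097 CPM at 360 min. The gene was chosen after its values were seen.

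Ratios of CPM between related clock genes were compared at 360 and 0 min for 4 pairs chosen after their values were seen. NR1D2 to NR1D1 was 1.72, 2.2 and 2.23 at 0 min and 3.28, 3.08 and 2.74 at 360 min (2-sided exact permutation p = 0.1, adjusted 0.2), and CLOCK to NPAS2 was 0.182, 0.207 and 0.215 at 0 min and 0.254, 0.261 and 0.264 at 360 min (exact permutation p = 0.1, adjusted 0.2). With 3 libraries a group 0.1 is the smallest p this test can give. PER1 to PER3 (exact permutation p = 0.2) and CRY2 to CRY1 (exact permutation p = 0.5) overlapped between the groups.

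The blood cell markers LYZ (1740 to 1960 CPM) and CD68 (48.6 to 64.6 CPM) were present in every library, while PTPRC was at 0.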
